A study of Mus musculus with 4 samples.

Results

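The transcripts of 41 DNA replication and S phase genes, of 32285 genes in the matrices, were followed in single cells of E14.5 mouse ventricles with and without endothelial *Ets1*. The members were taken by gene symbol, and all 41 symbols were found. For each library their unique molecular identifiers (UMIs, each a captured transcript molecule) were summed over the cells of each cell type, and *Ets1* eKO libraries were set against control libraries. Control ventricles were *Tie2*Cre; *Ets1* fl/+ and *Ets1* eKO ventricles were *Tie2*Cre; *Ets1* fl/fl, so every library carried *Tie2*Cre, which is active in endothelial and endocardial cells and in blood cells, and every control also carried 1 floxed allele. The mice were kept on a C57BL/6 background and embryos of both sexes were used untreated. There were 2 libraries in each group, each made from 3 ventricles dissociated together with trypsin, and the labels put all 4 libraries in the same batch.

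DNA is copied once per cell cycle, in S phase. In G1 the MCM helicase is loaded on replication origins with the help of *Cdc6*. From S phase to mitosis geminin (*Gmnn*) blocks its reloading. In S phase CDC45 and GINS activate it, polymerase alpha and primase start new strands, the PCNA clamp loaded by replication factor C carries the other polymerases, and histones, nucleotides and cohesin are supplied as the fork moves. The genes of this machinery are induced together at the G1/S boundary, in large part by E2F transcription factors, so their summed transcripts are widely read as a mark of cycling cells. In the ventricle at midgestation, cardiomyocytes, coronary endothelium and mesenchyme all still divide, while the endocardium that lines the chamber grows with the trabeculae.

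The E2F-type letters can be seen in the promoters themselves. RefSeq promoters (build GRCm38.p6, from 250 bases before to 50 bases after the start site) were found for 30 of the 41 members, with 33 promoters in all. They were searched on both strands for TTTCCCGC, TTTGGCGC, TTTCGCGC and TTTGCCGC, where matches on opposite strands may overlap. At least 1 match was present in 13 of the 33 member promoters (39.4%), against 744 of all 32851 promoters of the same length (2.26%). The 13 genes were *Mcm3*, *Mcm5*, *Mcm6*, *Mcm7*, *Cdc6*, *Pola1*, *Pold3*, *Dtl*, *Pclaf*, *Uhrf1*, *Hells*, *Cdca7* and *Clspn*. A match is a description of the letters in this window and not a bound site. The promoters of the 4 matching members with the highest mean level over cell types are shown because *Pclaf* was the member with the smallest adjusted p-value in mEndo-like and epicardial-like cells, and the others stand for the helicase and for chromatin copying. Capitals mark the matches, and each sequence runs 5′ to 3′ on the strand of its gene.
Pclaf (chr9:65890073-65890372, plus strand, match at position -5 from the start site): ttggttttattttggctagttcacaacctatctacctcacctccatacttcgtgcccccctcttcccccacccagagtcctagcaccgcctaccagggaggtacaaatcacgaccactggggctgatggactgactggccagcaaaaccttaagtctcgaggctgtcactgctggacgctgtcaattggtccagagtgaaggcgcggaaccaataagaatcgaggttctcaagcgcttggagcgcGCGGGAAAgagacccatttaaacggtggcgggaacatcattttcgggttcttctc
Mcm3 (chr1:20820263-20820562, minus strand, matches at positions 20 and 39): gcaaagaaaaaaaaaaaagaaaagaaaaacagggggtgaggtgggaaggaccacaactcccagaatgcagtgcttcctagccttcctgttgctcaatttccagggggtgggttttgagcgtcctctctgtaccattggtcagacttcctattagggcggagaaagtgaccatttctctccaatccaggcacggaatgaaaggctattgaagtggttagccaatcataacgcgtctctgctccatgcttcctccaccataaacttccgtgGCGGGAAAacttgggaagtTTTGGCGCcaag
Mcm6 (chr1:128359656-128359955, minus strand, matches at positions -110, -106 and -47): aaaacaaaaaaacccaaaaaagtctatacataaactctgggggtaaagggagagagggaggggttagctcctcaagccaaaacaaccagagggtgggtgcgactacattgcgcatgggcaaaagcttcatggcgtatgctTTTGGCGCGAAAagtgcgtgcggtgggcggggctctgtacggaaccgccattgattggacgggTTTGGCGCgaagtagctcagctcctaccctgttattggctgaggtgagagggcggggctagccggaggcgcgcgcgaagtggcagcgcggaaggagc
Hells (chr19:38930740-38931039, plus strand, match at position -62): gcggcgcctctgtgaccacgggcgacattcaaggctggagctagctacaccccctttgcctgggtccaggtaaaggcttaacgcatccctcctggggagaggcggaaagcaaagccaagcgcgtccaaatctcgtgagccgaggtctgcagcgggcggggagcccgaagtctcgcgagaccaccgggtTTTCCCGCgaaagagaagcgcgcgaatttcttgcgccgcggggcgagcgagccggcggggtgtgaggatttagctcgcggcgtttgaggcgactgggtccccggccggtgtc

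The libraries held 7949 to 14951 barcodes and 76931208 to 124140739 UMIs. Cells were assigned to classes by marker genes. The classes were mural endocardium (mEndo-like, 4358 cells), valve endocardium (vEndo-like, 754), coronary vascular endothelium (cvEC-like, 1597), cardiomyocytes (CMs, 17435), mesenchyme (7760) and epicardium (846). eKO replicate 2 was the shallowest library, with a median of 5632 UMIs per barcode against 8222 to 8630 in the others. Pairs of libraries shared 19 to 47 cell barcodes. *Ets1*, the targeted gene, gave 282 and 261 against 122 and 94.3 CPM (UMIs counted per 1000000 UMIs of the class, controls against eKO) in mEndo-like cells, 362 and 331 against 176 and 126 in cvEC-like cells and 260.3 and 257 against 93.8 and 103 in vEndo-like cells. In CMs it was low, at 6.10 and 6.18 against 8.96 and 8.98, and higher in both eKO libraries. Which exons the floxed allele removes is not given in the sources used here, so 3′ UMIs measure the transcript that remains and not the deletion. Barcodes filled by globin transcripts held the members at 69.6 and 111 CPM in the controls and 212 and 217 in the eKO libraries. In these barcodes 21 G2 and mitosis genes stood at 364 and 417 in the controls and 524 and 471 in the eKO libraries. Both lists were higher in both eKO libraries. Whether these transcripts were the red cells' own or free RNA from other cells was not tested. The part of free RNA in the class values was not tested either.

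Among the 6 classes the members were highest in coronary endothelium and lowest in epicardium. Their summed level was 2628 and 2864 in the control libraries and 2766 and 2802 in the eKO libraries (CPM) in cvEC-like cells, and 1076 and 1116 in the control libraries and 1285 and 1397 in the eKO libraries in epicardial-like cells. All 4 cvEC-like values lay above all values of every other class, and all 4 epicardial-like values lay below all others. In mEndo-like cells the level was 1419 and 1808 in the control libraries and 1744 and 2306 in the eKO libraries. Of the 41 members, 28 had their highest mean level in cvEC-like cells, 6 in mesenchyme-like cells, 5 in CMs and 2 in vEndo-like cells, and 35 had their lowest in epicardial-like cells. For 23 members all 4 cvEC-like values exceeded all 4 mEndo-like values, and for 27 they exceeded all 4 CM values. The 5 members highest in CMs were *Gmnn*, *Rrm2* (the regulated subunit of ribonucleotide reductase), *Ung* (a uracil-DNA glycosylase), *E2f8* (a repressive E2F) and *Esco2* (a cohesin acetyltransferase). *Rrm2* averaged 108 CPM in CMs, 62.6 in cvEC-like and 10.9 in epicardial-like cells. *Gmnn* averaged 119.6, 84.9 and 32.4 in the same order. *Hells*, a chromatin remodeller needed for DNA methylation, had the other order, with 39.8 in CMs and 117 in cvEC-like cells. *Nasp*, a histone chaperone, varied less, from 184 in mEndo-like to 276 in mesenchyme-like cells. In sums of this kind more cells in S phase and more transcript per cell cannot be told apart.

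**Figure D1:**
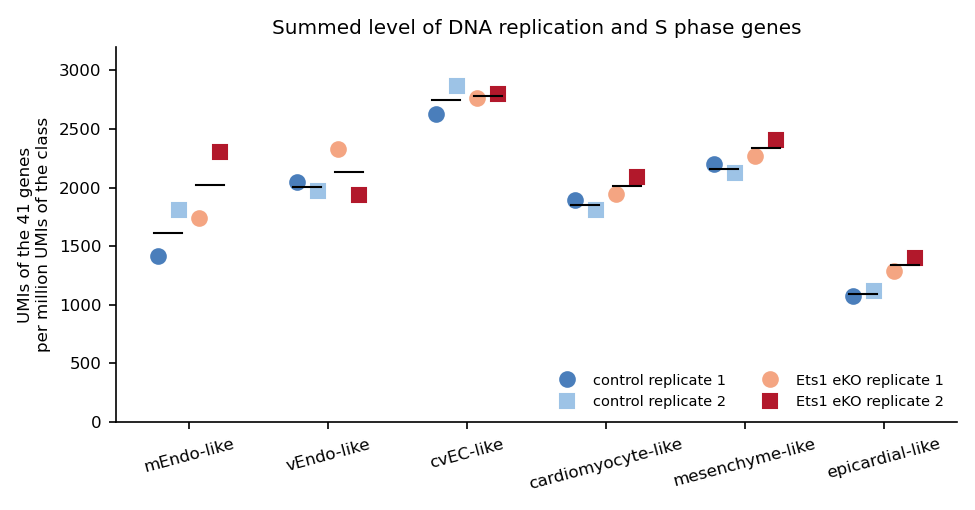
Summed level of the 41 genes in CPM of each class (y axis), 1 point per library, for 6 cell classes (x axis), with controls and eKO libraries in separate colours. The cvEC-like points sit at 2628 to 2864 with the groups mixed, the mEndo-like points spread from 1419 to 2306, and in CMs, mesenchyme-like and epicardial-like cells both eKO points lie above both controls.

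In mEndo-like cells, nearly every member was higher in *Ets1* eKO than in control libraries, but none passed the test. The summed level was 1614 ± 275 (SD, n = 2) and 2025 ± 398 (SD, n = 2) CPM in control and eKO libraries, a ratio of 1.25, and control replicate 2 lay above eKO replicate 1. The fitted log2 fold change (eKO over control, edgeR quasi-likelihood test on UMIs summed per library) was positive for 40 of the 41 members, with a median of 0.39 against 0.00 for all 12901 genes tested. No member passed a Benjamini-Hochberg adjusted p of 0.05, which 3.26% of all genes did. At an unadjusted p under 0.05, 13 members were higher and 0 lower, where 10.8% of all genes were higher and 11.4% lower. DESeq2 called 2 members, *Pclaf* and *Usp1* (DESeq2 adjusted p = 0.00881 and 0.0471), against 3.23% of all genes. Both eKO libraries lay above both controls for 16 members, against 25.5% of all genes.

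The size of this difference rested on single libraries. The median log2 fold change of the members was 0.61 without control replicate 2 and 0.59 without eKO replicate 1, and 0.19 without control replicate 1 and 0.16 without eKO replicate 2. The number of members that passed the edgeR threshold was 13, 9, 1 and 0 in the same order, where 4.43%, 8.08%, 3.62% and 1.57% of all genes passed. Control replicate 1 had the lowest value of the 4 libraries for 34 of the 41 members and eKO replicate 2 the highest for 39, and eKO replicate 2 was also the shallowest library, with a median of 4242 UMIs per mEndo-like cell against 6744 to 7204 in the others. Markers moved in these cells as well. The mEndo marker list summed to 3883 and 3862 against 3194 and 2877 CPM (controls against eKO) and the mesenchyme list to 859.7 and 726 against 1513 and 1418. The vEndo list was lower, at 1497 and 1381 against 1212 and 1039, and the cvEC list (49.8 and 32.5 against 76.0 and 89.6) and the smooth muscle and pericyte list (45.5 and 51.9 against 88.3 and 74.1) were higher, as was the cardiomyocyte list (1056 and 611 against 1069 and 1291), each without overlap. Gene by gene, the lists were less uniform. Both eKO libraries lay below both controls for 5 of 5 mEndo markers. They lay above for 8 and below for 2 of 15 mesenchyme markers, for 4 and 1 of 7 smooth muscle and pericyte markers, for 3 and 1 of 7 cvEC markers and for 2 and 2 of 5 vEndo markers, and above for 5 of 10 cardiomyocyte markers. The cvEC sum was mostly *Fabp4* (33.8 and 19.2 against 56.8 and 71.2), and *Cldn5* was lower (3.70 and 4.99 against 2.49 and 3.28). The vEndo sum was mostly *Cdh11* (1293 and 1168 against 1018 and 869), while *Wnt4* was higher (53.1 and 61.2 against 78.5 and 83.4). *Cdh11* had lower values in vEndo-like cells (442 and 410 against 436 and 469), so this sum says little of valve endocardium. The part of depth and of these markers in the member values was not tested.

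Of the helicase and licensing genes, which sum to 321 and 407 against 374 and 483 CPM, 9 of 10 had a positive fold change in mEndo-like cells and 2 had an unadjusted p under 0.05. *Gmnn*, at chr13:24751845-24761923 on the minus strand (GRCm38, as all gene positions here), had 28.8 and 33.2 in the control libraries and 38.1 and 57.1 in the eKO libraries, in CPM scaled by TMM factors as for all single genes. Both eKO values lay above both controls, with the distance set mostly by eKO replicate 2, and the log2 fold change was 0.62 ± 0.19 (SE), edgeR adjusted p = 0.101. *Mcm4*, a helicase subunit, had 39.2 and 50.6 in the control libraries and 51.0 and 66.5 in the eKO libraries, with control replicate 2 and eKO replicate 1 nearly equal (log2 fold change 0.40 ± 0.17 (SE), edgeR adjusted p = 0.212). *Mcm2*, another subunit of the same ring, had 31.4 and 38.9 in the control libraries and 28.4 and 40.3 in the eKO libraries. It was the only member with a negative fold change, -0.02 ± 0.19 (SE), edgeR adjusted p = 0.96, and its groups overlapped fully. The remaining MCM genes, *Mcm3*, *Mcm5*, *Mcm6* and *Mcm7*, were fitted at 0.20 to 0.33, and each had control replicate 2 above eKO replicate 1.

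The 9 polymerase, clamp and lagging strand genes were all positive in mEndo-like cells, and 4 had an unadjusted p under 0.05. *Pclaf* (chr9:65890237-65903266, plus strand), which encodes a PCNA-binding factor, gave 87.8 and 106 in the control libraries and 131 and 213 in the eKO libraries. All eKO values exceeded all control values, and the log2 fold change of 0.83 ± 0.20 (SE) was the largest of the members (edgeR adjusted p = 0.0545). *Rpa2*, a subunit of the single-strand binding protein, had 23.0 and 23.8 in the control libraries and 29.7 and 41.7 in the eKO libraries, also without overlap (log2 fold change 0.62 ± 0.18 (SE), edgeR adjusted p = 0.0894). *Prim1*, the catalytic primase subunit, had 15.8 and 27.5 in the control libraries and 28.7 and 39.4 in the eKO libraries, where control replicate 2 and eKO replicate 1 were close (log2 fold change 0.68 ± 0.25 (SE), edgeR adjusted p = 0.145). *Rfc2*, a clamp loader subunit, was fitted at 0.37 ± 0.14 (SE), edgeR adjusted p = 0.158. *Pcna* itself gave 56.6 and 68.1 in the control libraries and 55.5 and 90.2 in the eKO libraries, with eKO replicate 1 below both controls, and *Fen1*, the flap endonuclease, overlapped in the same way (12.9 and 15.1 against 12.6 and 21.2). The clamp and its binding factor thus had fold changes of 0.23 and 0.83 in the same cells, a difference between genes that was not tested.

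Nucleotide supply genes were positive in 4 of 4 cases. *Rrm2* had 19.2 and 27.8 in the control libraries and 24.8 and 50.5 in the eKO libraries and *Tyms* (thymidylate synthase) 53.7 and 68.4 in the control libraries and 65.1 and 127 in the eKO libraries. In both, eKO replicate 2 stood well above the other 3 libraries while eKO replicate 1 lay below control replicate 2, and the log2 fold changes were 0.70 ± 0.29 (SE), edgeR adjusted p = 0.192, and 0.66 ± 0.26 (SE), edgeR adjusted p = 0.166. *Rrm1*, the large subunit that is present through the cycle, was fitted at 0.27 ± 0.20 (SE), edgeR adjusted p = 0.456.

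The 7 chromatin copying genes were all positive in mEndo-like cells and none had an unadjusted p under 0.05. Their fold changes ran from 0.15 ± 0.17 (SE) for *Atad2*, a bromodomain ATPase, to 0.43 ± 0.20 (SE) for *Uhrf1*, which recognises hemimethylated DNA. *Atad2* gave 77.0 and 95.8 in the control libraries and 80.7 and 110.3 in the eKO libraries, an overlap of the groups (edgeR adjusted p = 0.645). *Hells* had 46.6 and 76.6 in the control libraries and 70.7 and 66.1 in the eKO libraries, so that control replicate 2 was the highest library.

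All 3 fork checkpoint genes were positive in mEndo-like cells, and *Usp1*, the deubiquitinase that acts on PCNA, had 47.0 and 61.6 in the control libraries and 75.1 and 94.8 in the eKO libraries. The groups did not overlap (log2 fold change 0.65 ± 0.17 (SE), edgeR adjusted p = 0.0623). *Tipin* of the fork protection complex and *Clspn*, the CHK1 adaptor claspin, were fitted at 0.44 ± 0.19 (SE) and 0.51 ± 0.23 (SE). The cycle regulators had few UMIs but kept the groups apart. *Ccne2* (cyclin E2) gave 10.9 and 16.2 in the control libraries and 19.7 and 24.5 in the eKO libraries (log2 fold change 0.73 ± 0.22 (SE), edgeR adjusted p = 0.0949) and *E2f8* gave 4.66 and 7.87 in the control libraries and 9.38 and 10.9 in the eKO libraries (log2 fold change 0.73 ± 0.28 (SE), edgeR adjusted p = 0.16). *Esco2* had the largest fold change after *Pclaf*, from 13.2 and 18.6 in the control libraries and 19.2 and 33.5 in the eKO libraries (log2 fold change 0.75 ± 0.26 (SE), edgeR adjusted p = 0.135), although control replicate 2 and eKO replicate 1 differed by less than 1 CPM. The repair genes *Rad51ap1*, *Exo1*, *Blm* and *Brip1* were positive without any unadjusted p under 0.05.

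**Figure D2:**
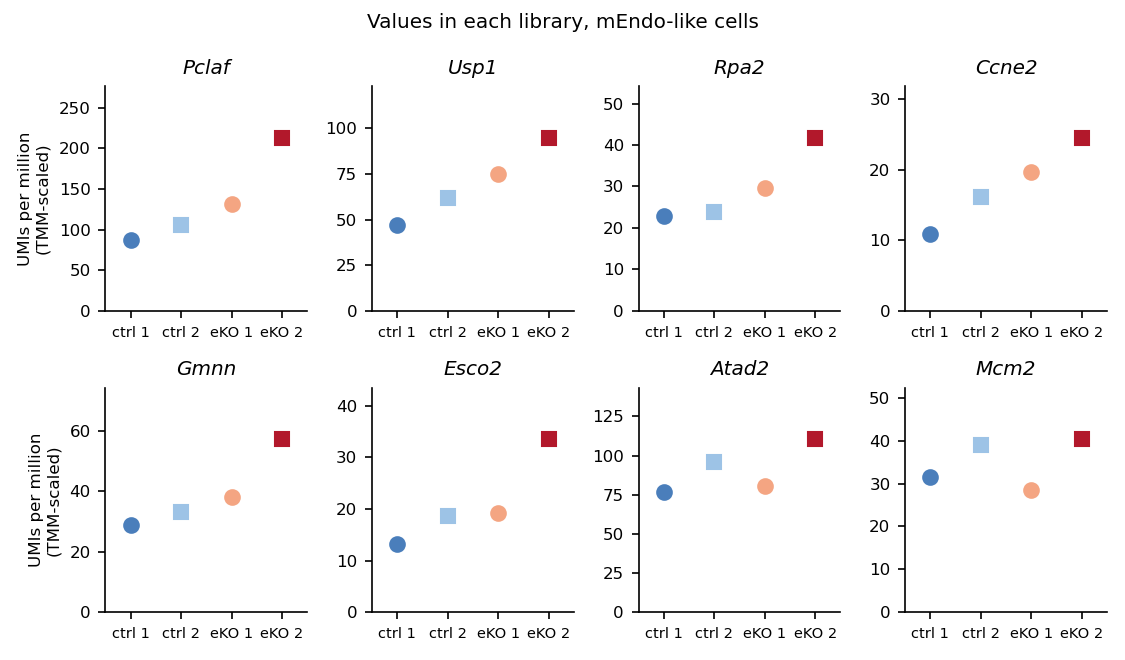
TMM-scaled CPM (y axis, from 0) of 8 members in mEndo-like cells, 1 point per library (x axis). For Pclaf, Usp1, Rpa2, Ccne2, Gmnn and Esco2 both eKO points lie above both control points, with eKO replicate 2 the highest, while for Atad2 and Mcm2 the groups overlap.

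Cells rich in replication transcripts were counted after cells were thinned to 2000 UMIs, since libraries differed in depth. Cells with fewer than 2000 UMIs were left out, so these shares cover the deeper cells only. In mEndo-like cells 49 and 27 were left out in the control and 31 and 106 in the eKO libraries. In mesenchyme-like cells these were 71 and 81 in the control and 95 and 212 in the eKO libraries. A cell was called member-rich when 6 or more of its 2000 UMIs came from the 41 genes. In mEndo-like cells the share was 10.4% (8.56 to 12.5) in control replicate 1, 16.5% (13.9 to 19.5) in control replicate 2, 15.1% (12.8 to 17.7) in eKO replicate 1 and 23.2% (21.1 to 25.3) in eKO replicate 2, with Clopper-Pearson 95% intervals that cover counting error only. Control replicate 2 again lay above eKO replicate 1. Member-rich cells held a mean of 10.6 and 10.3 in the control and 10.1 and 10.8 in the eKO libraries member UMIs, and the other cells 1.52 and 1.75 in the control and 1.86 and 2.02 in the eKO libraries. Both means are bounded by the limit of 6 that defines the sets. The share of member-rich cells was lowest in control replicate 1 and highest in eKO replicate 2. Cells at 5 or 6 UMIs, next to the limit, made up 5.10% to 8.75% of each library. Without thinning the share was 47.6 and 56.7 in the control and 56.4 and 47.4 in the eKO libraries (%). Median UMIs per cell had the same rank order (6744 and 7204 in the control and 6816 and 4242 in the eKO libraries). Control replicate 1 and eKO replicate 2 had similar shares at unlike depths, and the part of depth was not tested. With 4 libraries in 2 groups an exact two-sided permutation test of 2 against 2 cannot reach 0.05, and its smallest p is 0.333, so shares and summed levels are given without a test.

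In the other classes the member-rich share was 37.9% and 40.2% in the control libraries and 41.2% and 43.0% in the eKO libraries in cvEC-like cells, 20.4% and 20.4% in the control libraries and 24.6% and 18.2% in the eKO libraries in vEndo-like cells, 21.6% and 20.7% in the control libraries and 22.4% and 26.0% in the eKO libraries in CMs, 20.4% and 19.2% in the control libraries and 21.6% and 26.3% in the eKO libraries in mesenchyme-like cells and 4.11% and 5.04% in the control libraries and 7.79% and 8.57% in the eKO libraries in epicardial-like cells. Both eKO values exceeded both control values in cvEC-like cells, CMs, mesenchyme-like and epicardial-like cells, and the 2 groups overlapped in vEndo-like and mEndo-like cells. When cells were thinned to 1000 UMIs and the same minimum of 6 was kept, the groups overlapped in cvEC-like cells (10.2% and 16.3% against 14.1% and 13.5%), in CMs (7.53% and 6.66% against 7.45% and 8.84%) and in mesenchyme-like cells (7.94% and 8.02% against 7.58% and 10.3%). With 2000 UMIs and a minimum of 4 instead of 6, the mEndo-like shares did not overlap, at 19.5% and 27.2% against 27.7% and 37.3%, control replicate 2 and eKO replicate 1 being close. In cvEC-like cells the gap between the groups was smaller than the width of each counting interval. In epicardial-like cells the shares rest on 6 and 6 against 19 and 24 cells.

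**Figure D3:**
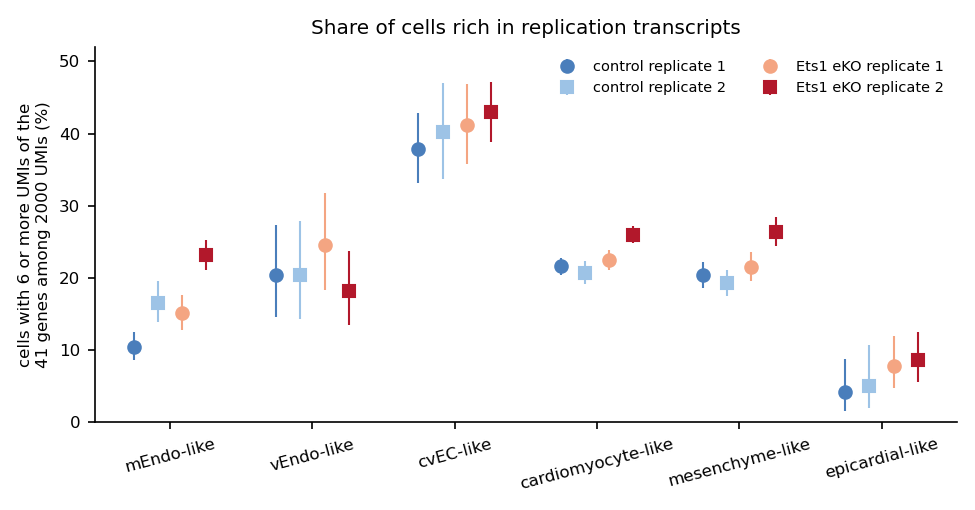
Percent of cells with 6 or more UMIs of the 41 genes among 2000 UMIs (y axis), by class (x axis) and library (points), with Clopper-Pearson 95% intervals as bars. Cells with fewer than 2000 UMIs are left out. cvEC-like cells have the highest shares, at 37.9% to 43.0%, and epicardial-like cells the lowest, at 4.11% to 8.57%.

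The members differed in how closely they followed these cells. For each member, CMs were called rich by the other 40 genes, and its level in rich cells was divided by its level in the rest. This describes how the members vary together, and no test applies, because the cells were chosen by replication transcripts. The ratio was above 1 for all 41 members in every library in CMs and in mesenchyme-like cells. In the other classes, counting libraries with more than 3 UMIs of the gene in the rest, it was so for 40 of the 40 members with a ratio in mEndo-like, 38 of 39 in cvEC-like, 32 of 34 in vEndo-like and 17 of 32 in epicardial-like cells. The highest median ratios over the 4 libraries were 10.4 (range 7.60 to 11.2) for *Exo1*, an exonuclease, 9.87 (range 8.16 to 14.6) for *Cdc6*, 9.81 (range 6.58 to 11.8) for *Brip1*, a repair helicase, and 9.73 (range 7.49 to 11.4) for *Cdc45*. The lowest were 1.77 (range 1.21 to 2.41) for *Cdca7*, the partner of HELLS, 2.24 (range 2.16 to 2.40) for *Slbp*, which binds histone mRNA, and 2.70 (range 2.53 to 2.77) for *Nasp*. Of the repair genes, *Exo1*, *Brip1* and *Rad51ap1* were among the most concentrated in rich cells and *Blm*, another helicase, was at 3.94 (range 3.71 to 4.92). Of the UMIs of *Cdc6* in CMs, 76.6% came from rich cells, against 40.7% of those of *Nasp*. In mEndo-like cells the ratio reached 21.2 (range 12.6 to 26.7) for *Clspn* and 20.5 (range 6.84 to 25.3) for *Esco2* but was 2.08 (range 1.78 to 2.48) for *Mcm2*, so that *Mcm2*, which had the lowest fold change in these cells, was also the member that followed the others least.

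**Figure D4:**
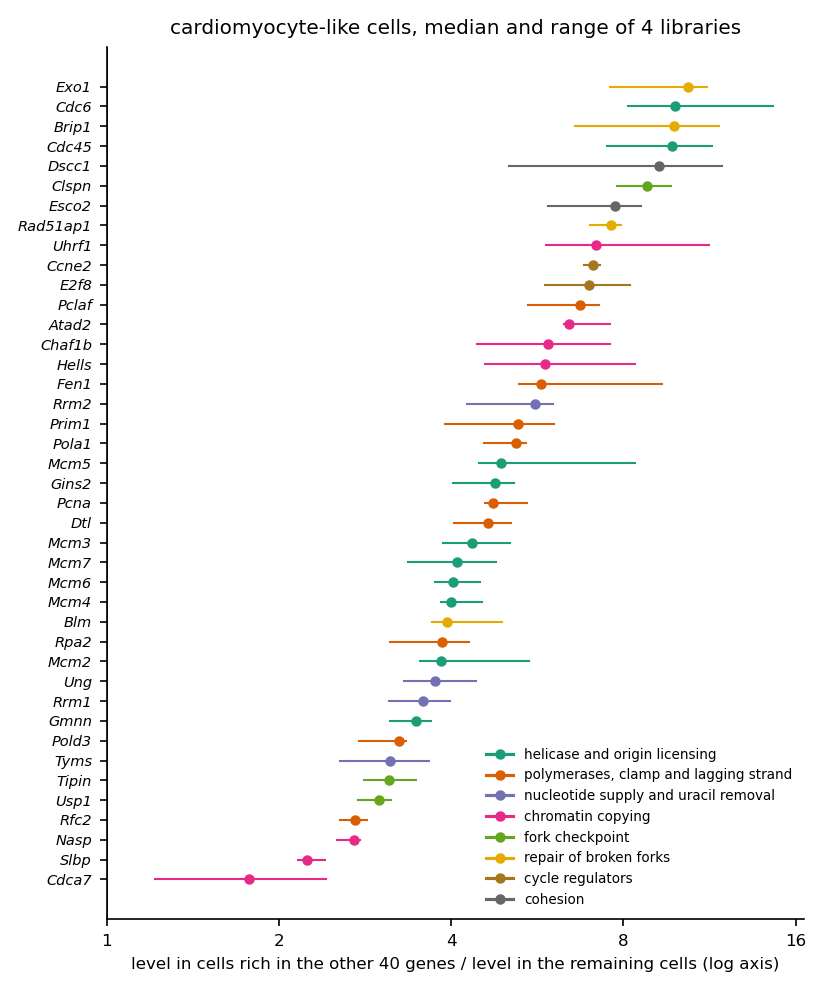
Level of each of the 41 genes in CMs rich in the other 40 genes divided by its level in the remaining CMs (x axis, log scale), with points at the median and lines over the range of 4 libraries, coloured by role. All lines lie above 1, from Cdca7 at a median of 1.77 to Exo1 at 10.4.

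Member-rich CMs could be divided by whether they also held 6 or more UMIs of 21 G2 and mitosis genes. Of the 41 members, 18 were lower in the rich CMs with mitotic transcripts than in those without in all 4 libraries, and 7 were higher in all 4. *Cdc6* had 39.1 CPM without and 8.31 with mitotic transcripts over the 4 libraries together, a median ratio of 0.191. *Ung*, *Dtl* (the receptor of a PCNA-linked ubiquitin ligase), *Hells* and *Mcm4* had ratios of 0.259, 0.341, 0.390 and 0.456. *Esco2* had the other order, 81.7 and 196 CPM and a ratio of 2.52, and *Rrm2*, *Pclaf*, *Tyms*, *Rrm1*, *Usp1* and *E2f8* followed at 1.90, 1.52, 1.40, 1.37, 1.36 and 1.34. The 6 MCM genes had median ratios from 0.456 to 0.720. In mEndo-like cells, cells with 6 or more G2 and mitosis UMIs made up 7.60 and 9.99 in the control and 11.6 and 14.9 in the eKO libraries (%), and here both eKO values were above both controls. In vEndo-like cells these shares were 19.2% and 20.4% against 13.5% and 16.9%, and in cvEC-like cells 31.9% and 36.1% against 30.4% and 31.7%, with both eKO values below both controls in each. Both eKO values were again above both controls in CMs (23.9% and 20.5% against 24.5% and 26.4%), in mesenchyme-like cells (17.3% and 15.98% against 20.0% and 20.9%) and in epicardial-like cells (2.74% and 5.88% against 7.79% and 8.21%).

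In CMs, in which *Tie2*Cre is not active, 40 of 41 members also had a positive fold change and none passed the test. The summed level was 1894 and 1813 in the control libraries and 1943 and 2091 in the eKO libraries, without overlap, and the ratio of the means was 1.09. The median log2 fold change was 0.22 against 0.01 for all genes. Adjusted calls were 0 of 41 members by edgeR, against 0.0% of all genes, and 0 by DESeq2, against 0.217% of the 14735 genes with an adjusted p, and 13 members had an unadjusted p under 0.05 and were higher, against 5.05%. Both eKO libraries lay above both controls for 26 members, against 23.1% of all genes. When libraries were scaled to total UMIs instead of TMM factors, the median of all genes in CMs moved to -0.11, that of the members to 0.10, and 31 of the 41 stayed positive. *Pclaf* gave 137 and 111 in the control libraries and 163 and 203 in the eKO libraries (log2 fold change 0.56 ± 0.16 (SE), edgeR adjusted p = 0.416) and *Gmnn* 108 and 87.8 in the control libraries and 126 and 156 in the eKO libraries (log2 fold change 0.52 ± 0.16 (SE), edgeR adjusted p = 0.416), both without overlap. At the other end, *Dtl* had 28.6 and 26.8 in the control libraries and 27.1 and 26.6 in the eKO libraries and *Pola1* (the catalytic subunit of polymerase alpha) 61.0 and 59.0 in the control libraries and 61.5 and 59.4 in the eKO libraries, with log2 fold changes of -0.04 ± 0.10 (SE) and 0.01 ± 0.10 (SE) (edgeR adjusted p = 0.858 and 0.97). The sign for *Pola1* turned to -0.11 with total scaling. Without eKO replicate 1, 14 members passed the edgeR threshold in CMs, as did 14.4% of all genes, and without eKO replicate 2, 2 members and 1.8% of all genes did. Other values moved with the groups in CMs. Smooth muscle and pericyte markers summed to 74.5 and 89.1 CPM in controls against 65.5 and 60.4 in eKO libraries and immune markers to 6.28 and 6.91 against 7.72 and 11.3. The cvEC list (77.4 and 74.7 against 68.3 and 73.1) and the epicardial list (3.53 and 3.20 against 2.70 and 2.94) were lower and the cardiomyocyte list itself higher (48811 and 47639 against 49766 and 48861), each without overlap. Single markers were above both controls in both eKO libraries for 3 and below for 1 of 10 cardiomyocyte genes (*Myh7*, 4431 and 4895 against 4150 and 3239, was the lower), for 1 and 4 of 7 smooth muscle and pericyte genes, for 0 and 3 of 7 cvEC genes, for 2 and 1 of 9 epicardial genes and for 8 and 0 of 11 immune genes. CMs of eKO replicate 2 had a median of 7656 UMIs against 11932 to 12746 in the others. Their part in the members' values was not tested.

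Mesenchyme-like cells gave the same count, with 40 of 41 members positive and a median of 0.22 against 0.01 for all genes. The summed level was 2198 and 2125 in the control libraries and 2268 and 2406 in the eKO libraries, again without overlap (ratio of means 1.08). No member passed the edgeR or DESeq2 threshold, which 0.0338% and 0.655% of all genes did, 9 members were higher at an unadjusted p under 0.05 (4.51% of all genes), and 28 had both eKO libraries above both controls (21.5% of all genes). *E2f8* had 12.9 and 9.20 in the control libraries and 17.7 and 17.4 in the eKO libraries, the largest difference (log2 fold change 0.66 ± 0.19 (SE), edgeR adjusted p = 0.324), and *Ccne2* had 14.2 and 15.2 in the control libraries and 20.0 and 20.9 in the eKO libraries (log2 fold change 0.48 ± 0.14 (SE), edgeR adjusted p = 0.334). The 2 cycle regulators thus kept the groups apart here as in mEndo-like cells. *Fen1* gave 18.9 and 18.0 in the control libraries and 14.9 and 20.4 in the eKO libraries and *Dtl* 47.6 and 45.1 in the control libraries and 48.1 and 45.1 in the eKO libraries, with overlap and log2 fold changes of -0.08 ± 0.17 (SE) and 0.01 ± 0.12 (SE) (edgeR adjusted p = 0.892 and 0.984). Other markers also moved with the groups in this class. Smooth muscle and pericyte markers summed to 538 and 619 CPM in controls against 340 and 275 in eKO libraries, mEndo markers to 294 and 373 against 274 and 252, immune markers to 7.32 and 7.93 against 11.3 and 19.6, epicardial markers to 76.0 and 61.2 against 82.0 and 78.7, erythroid markers to 205 and 90.6 against 208 and 274, and *Ets1* was at 104 and 89.7 against 63.8 and 58.8. Single markers went with their sums for 3 of 7 smooth muscle and pericyte, 2 of 5 mEndo, 5 of 11 immune, 7 of 9 epicardial and 4 of 9 erythroid genes, and the others overlapped. The mesenchyme list itself overlapped in its sum (13111 and 13080 against 13554 and 12784). Of its 15 genes 5 were below and 1 above both controls in both eKO libraries. Their part in the members' values was not tested. The count of members called was 2 without eKO replicate 1 and 1 without control replicate 1 or eKO replicate 2, where 3.27%, 1.66% and 2.2% of all genes were called.

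In epicardial-like cells the level was low, and the fitted log2 fold changes of single members ran from -0.50 to 1.62. Only 34 members passed the filter on low counts, and *Cdc45*, *Cdc6*, *Exo1*, *Ccne2*, *E2f8*, *Esco2* and *Dscc1* (a subunit of the alternative clamp loader for cohesion) were not tested. The summed level was 1076 and 1116 in the control libraries and 1285 and 1397 in the eKO libraries (ratio of means 1.22), without overlap. Of the tested members 30 were positive, with a median of 0.42 against 0.00 for all genes. Epicardial markers themselves summed to 3722 and 3792 CPM in controls against 3244 and 3453 in eKO libraries, mesenchyme markers to 12270.0 and 11193 against 10684 and 10281, and smooth muscle and pericyte markers to 265 and 529 against 223 and 196. The vEndo list was lower (1074 and 1098 against 982 and 844), and the cardiomyocyte list (2119 and 1723 against 2143 and 2475) and *Ets1* (8.66 and 12.6 against 15.3 and 19.7) were higher, each without overlap. The vEndo sum was nearly all *Cdh11* (1059 and 1085 against 967 and 835), which had lower values in vEndo-like cells themselves (442 and 410 against 436 and 469). Of single markers, 4 of 9 epicardial genes and 1 of 5 vEndo genes were below and 3 of 10 cardiomyocyte genes above both controls in both eKO libraries, but of 15 mesenchyme genes 4 were below and 3 above, and of 7 smooth muscle and pericyte genes 3 were below and 1 above. Their part in the members' values was not tested. No member passed the edgeR or DESeq2 threshold (0.0698% and 0.0% of all genes). At an unadjusted p under 0.05, 9 were higher and 1, *Pola1*, was lower, where 3.05% of all genes were higher and 3.26% lower. Both eKO libraries lay above both controls for 19 members (18.0% of all genes) and below for 1 (18.2%). *Pclaf* had 35.5 and 23.8 in the control libraries and 63.3 and 71.4 in the eKO libraries (log2 fold change 1.16 ± 0.24 (SE), edgeR adjusted p = 0.0608). It passed the threshold with the stricter cell filter and without control replicate 1. *Rrm2* was fitted highest, at 1.62 ± 0.49 (SE), edgeR adjusted p = 0.414, from 6 and 5 UMIs in the control and 21 and 29 in the eKO libraries. With so few control UMIs it passed the filter on low counts only through the eKO libraries, where it was high. It is among the 30 positive, the 9 higher and the 19 members above both controls, and in the median of 0.42. Its fit and its place are not read as a result. *Brip1* and *Rad51ap1* were also low, at means of 8.53 and 10.0 CPM over the 4 libraries. Whether they passed the filter in the same way was not checked, and the counts and the median include them. *Pola1* and *Mcm3* went the other way, with 52.8 and 59.0 in the control libraries and 38.6 and 40.6 in the eKO libraries, and 37.2 and 30.0 in the control libraries and 24.8 and 31.6 in the eKO libraries (log2 fold changes -0.50 ± 0.22 (SE) and -0.28 ± 0.27 (SE), edgeR adjusted p = 0.773 and 0.902).

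cvEC-like cells, the class with the highest levels and with reduced *Ets1* UMIs, showed close values in the 2 groups. The summed level was 2746 ± 167 (SD, n = 2) and 2784 ± 25.5 (SD, n = 2) in control and eKO libraries (ratio 1.01). The fold change was positive for 29 of 41 members with a median of 0.06 against 0.01 for all genes, but for only 19 with total scaling, where the medians were -0.02 and -0.07, and for 19 without control replicate 1. No member was called by edgeR or DESeq2 (0.938% and 0.675% of all genes), 3 were higher at an unadjusted p under 0.05 (6.1% of all genes), and 11 lay above and 3 below both controls in both eKO libraries (21.7% of all genes above and 23.2% below). The cvEC markers themselves summed to 7873 and 6556 CPM in controls against 8530.4 and 9477 in eKO libraries, erythroid markers to 172 and 74.1 against 181 and 228 and immune markers to 30.9 and 24.8 against 18.1 and 19.9. The cvEC sum was mostly *Fabp4* (6930.4 and 5790.2 against 7740.4 and 8736), and of the 7 cvEC markers 2 were above both controls in both eKO libraries and 2 below, *Cldn5* (373 and 311 against 277 and 225) and *Kcne3* (79.98 and 92.6 against 57.96 and 74.1). Of 11 immune markers 2 were above and 2 below, and of 9 erythroid markers 2 above. The part of these markers in the members' values was not tested. The 3 higher at an unadjusted p under 0.05 were *Dscc1* with 9.94 and 8.52 in the control libraries and 15.2 and 14.2 in the eKO libraries (log2 fold change 0.65 ± 0.22 (SE), edgeR adjusted p = 0.267), *Cdc6* with 15.3 and 16.1 in the control libraries and 23.8 and 20.1 in the eKO libraries (log2 fold change 0.49 ± 0.19 (SE), edgeR adjusted p = 0.319) and *Pclaf* with 226 and 225 in the control libraries and 278 and 292 in the eKO libraries (log2 fold change 0.34 ± 0.14 (SE), edgeR adjusted p = 0.349). All 3 separated the groups. The lowest fold changes were those of *Brip1*, 30.7 and 36.2 against 28.5 and 30.6 (-0.16 ± 0.17 (SE), edgeR adjusted p = 0.706), and *E2f8*, 13.1 and 14.0 against 11.5 and 12.9 (-0.14 ± 0.22 (SE), edgeR adjusted p = 0.814).

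In vEndo-like cells, of which there were 148 to 254 per library, the summed level was 2044 and 1974 in the control libraries and 2327 and 1939 in the eKO libraries, so that eKO replicate 2 was the lowest and eKO replicate 1 the highest library. Of 40 members tested (*Ung* fell under the filter), 29 were positive, with a median of 0.09 against 0.01 for all genes, and without eKO replicate 1 only 14 were positive, with a median of -0.07. Calls were 0 by edgeR (0.843% of all genes). DESeq2 gave an adjusted p to only 17 of the 40, *Ccne2*, *Cdca7*, *Exo1* and *Esco2* not among them, and called 0 of the 17, against 0.82% of the 3782 genes with one. By edgeR, 3 members were higher at an unadjusted p under 0.05 (5.06% of all genes). Both eKO libraries lay above both controls for 7 members (20.5% of all genes) and below for 2, *Rrm1* and *Exo1* (21.7%). *Ccne2* was at 12.3 and 15.5 in the control libraries and 51.6 and 22.0 in the eKO libraries, the widest difference of any tested member here (log2 fold change 1.44 ± 0.36 (SE), edgeR adjusted p = 0.0799), and eKO replicate 1 was the highest library. *Cdca7* showed the same single high library, with 16.8 and 24.4 in the control libraries and 47.0 and 19.3 in the eKO libraries (log2 fold change 0.73 ± 0.35 (SE), edgeR adjusted p = 0.456), and without eKO replicate 1 its sign turned (-0.08). *Exo1* with 12.9 and 14.8 in the control libraries and 10.0 and 9.17 in the eKO libraries and *Esco2* with 33.6 and 28.1 in the control libraries and 30.0 and 17.4 in the eKO libraries had the lowest fold changes (-0.52 ± 0.39 (SE) and -0.36 ± 0.29 (SE), edgeR adjusted p = 0.661 and 0.698). By edgeR, 1 member passed without control replicate 2 (0.993% of all genes) and 2 without eKO replicate 2 (2.35%). Smooth muscle and pericyte markers in vEndo-like cells summed to 214 and 249.6 CPM in controls against 147 and 129 in eKO libraries, cvEC markers to 114 and 126 against 101 and 109, immune markers to 5.18 and 5.17 against 14.3 and 13.4 and epicardial markers to 9.06 and 8.86 against 15.8 and 21.4. In the cvEC list *Cldn5* was lower (62.8 and 58.3 against 37.5 and 33.9) and *Fabp4* higher (36.9 and 20.7 against 42.0 and 62.4). Of 7 smooth muscle and pericyte markers 3 were below and 1 above both controls in both eKO libraries, and 3 of 11 immune and 3 of 9 epicardial markers were above. The mesenchyme and general endothelial lists overlapped in their sums. Of 15 mesenchyme markers 6 were below and 3 above, and of 8 endothelial markers 2 were below and 5 above. Their part in the members' values was not tested.

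**Figure D5:**
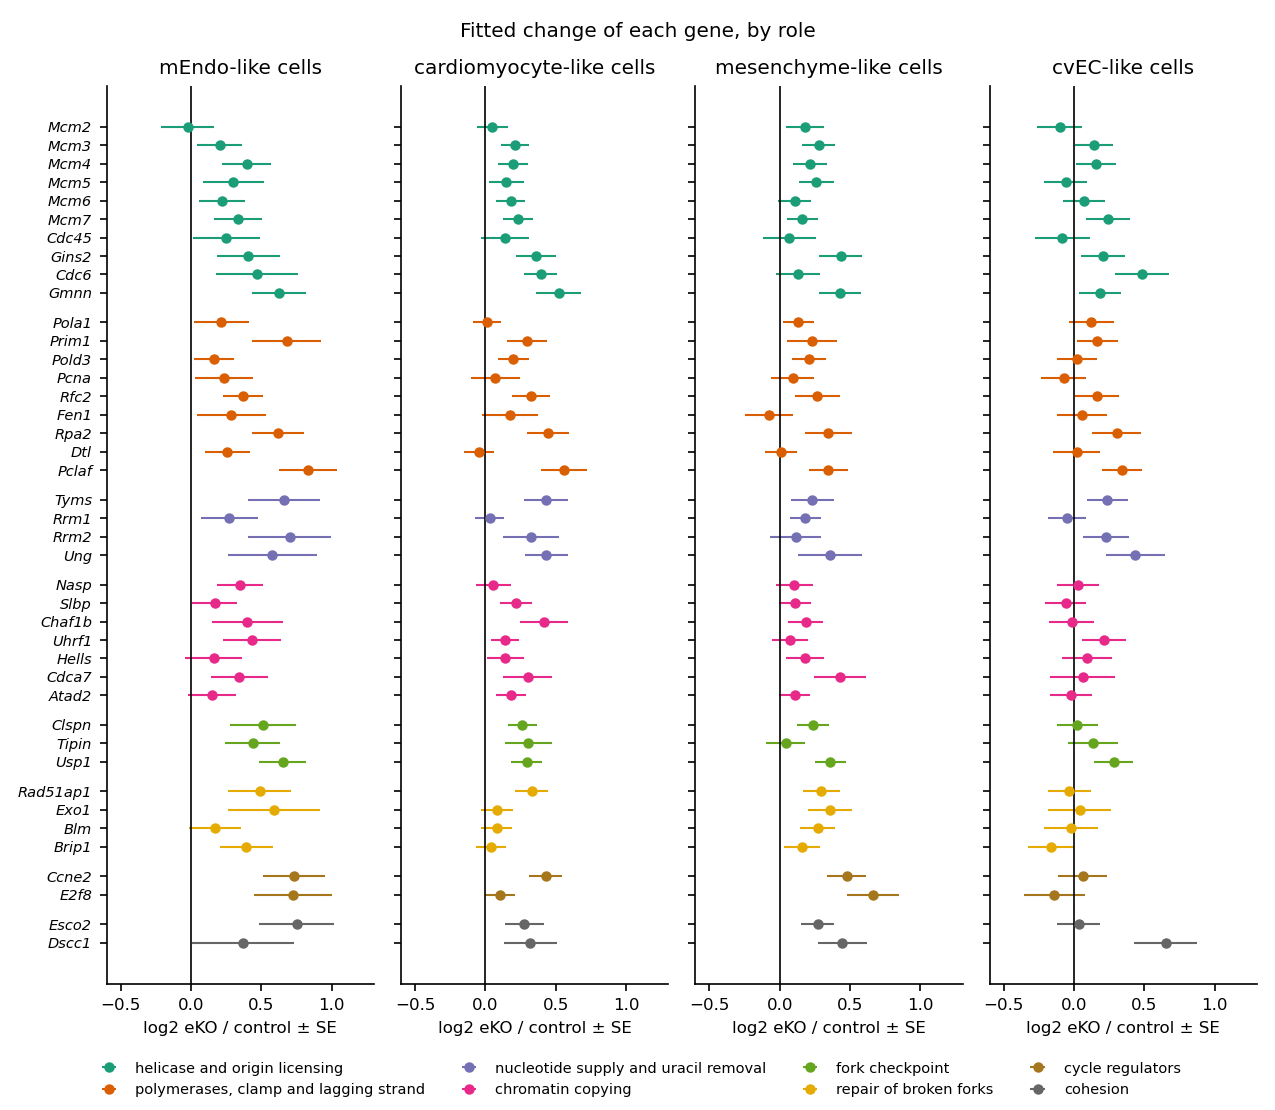
Fitted log2 fold change, eKO over control, with its SE (x axis) for each of the 41 genes (y axis, grouped by role) in 4 classes. In mEndo-like cells, CMs and mesenchyme-like cells 40 of 41 points lie above 0, and in cvEC-like cells 29 do, though with total scaling instead of TMM, which moved the median of all genes to -0.11 in CMs, -0.09 in mesenchyme-like and -0.07 in cvEC-like cells, 31, 36 and 19 do.

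Whether the eKO effect differed between classes was tested directly, with the library as a block. Against cvEC-like cells the mEndo-like effect was higher for 40 of 41 members, with a median difference of 0.34 on the log2 scale against 0.02 for all genes, and no member passed the threshold by edgeR (1.59% of all genes did). DESeq2 gave an adjusted p to 34 of the 41 and called 0 of them, against 0.697% of the 6457 genes with one. At an unadjusted p under 0.05, 21 members had the higher effect in mEndo-like cells (6.64% of all genes). The largest of these differences relative to their error were 0.76 ± 0.22 (SE) for *Esco2*, 0.48 ± 0.14 (SE) for *Gmnn*, 0.50 ± 0.15 (SE) for *Pclaf* and 0.73 ± 0.22 (SE) for *Ccne2* (edgeR adjusted p = 0.107, 0.117, 0.121 and 0.127). Without eKO replicate 1, 9 members passed (2.38% of all genes) and without control replicate 2, 7 did (2.05%), but without control replicate 1 or eKO replicate 2 none did. Against CMs the median difference was 0.16 against -0.01 for all genes, 37 members had the higher effect in mEndo-like cells, 4 at an unadjusted p under 0.05 (6.1% of all genes), and none passed by edgeR (1.74% of all genes) or DESeq2 (0.81% of the 13586 genes with an adjusted p). *E2f8* had the largest difference, 0.65 ± 0.24 (SE) (edgeR adjusted p = 0.258). Without control replicate 1 this comparison turned round, with 11 members higher and a median of -0.07, and without control replicate 2, 12 members passed (3.61% of all genes).

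The order of the groups was also read over the 6 classes, which share no cells but come from the same 4 libraries and so are not independent of each other. Counting only classes in which a gene was tested, both eKO libraries lay above both controls in at least 4 classes for 10 members, in at least 5 for 2 and in 6 for 1. Of the 10098 genes tested in at least 5 classes, 12.0%, 5.45% and 1.8% did so, against 24.4%, 4.88% and 2.44% of the members. *Pclaf* had both eKO libraries above both controls in 6 of 6 classes and *Mcm4* in 5. *Ccne2*, *Gmnn*, *Tyms*, *Rpa2*, *Rfc2*, *Prim1*, *Usp1* and *Rad51ap1* did so in 4. *E2f8* did so in 3 and had both eKO libraries below both controls in cvEC-like cells. *Pcna*, *Fen1* and *Cdc45* did so in 0, and *Rrm1* in 1, with both eKO libraries below both controls in 2.

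Other genes of the cycle were read beside the members from lists chosen by function. Of 49 tested replication genes that are not members, 38 had a positive fold change in mEndo-like cells and 2 rose, a share near the 3.26% of all genes called, while DESeq2 called 3, with *Tk1* (thymidine kinase) as the third (3.23% of all genes). *Ccna2* (cyclin A2) had 20.2 and 19.7 in the control libraries and 28.9 and 42.7 in the eKO libraries (log2 fold change 0.84 ± 0.20 (SE), edgeR adjusted p = 0.0464), and *Rfc4*, a clamp loader subunit like *Rfc2*, had 18.8 and 21.7 in the control libraries and 31.1 and 40.4 in the eKO libraries (log2 fold change 0.83 ± 0.18 (SE), edgeR adjusted p = 0.0328). Of 21 G2 and mitosis genes, 21 were positive in mEndo-like cells with a median of 0.70 and 4 rose, among them *Birc5* (survivin) with 69.6 and 77.9 in the control libraries and 107 and 172 in the eKO libraries (log2 fold change 0.92 ± 0.20 (SE), edgeR adjusted p = 0.0328) and *Cdc20* with 27.5 and 31.9 in the control libraries and 43.0 and 59.7 in the eKO libraries (log2 fold change 0.80 ± 0.18 (SE), edgeR adjusted p = 0.0394), and *Cenpf* and *Nusap1*. DESeq2 called 8 of the 21, these 4 and *Cenpa*, *Cenpe*, *Hmmr* and *Tpx2*. Without eKO replicate 2, none of *Ccna2*, *Rfc4*, *Birc5* and *Cdc20* passed, with log2 fold changes of 0.53 to 0.63 (edgeR adjusted p = 0.0921 to 0.191), and *Rfc4* did not pass without control replicate 1 either (0.73, edgeR adjusted p = 0.0620). With the stricter marker gate *Ccna2*, *Birc5* and *Cdc20* did not pass, and *Ccna2* did not with no doublets removed (0.80, edgeR adjusted p = 0.0505). In vEndo-like cells 1 of the 21 G2 and mitosis genes was positive, with a median of -0.41, 9 lower at an unadjusted p under 0.05 (6.19% of all genes) and 0 called by edgeR or DESeq2, while 29 of 40 members there were positive.

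Of 11 brakes of the cycle, *Btg2*, an antiproliferative gene, fell in mEndo-like cells, with 199.6 and 146 in the control libraries and 73.4 and 80.5 in the eKO libraries (log2 fold change -1.17 ± 0.16 (SE), edgeR adjusted p = 0.00383), and in vEndo-like cells, with 342 and 251 in the control libraries and 152 and 125 in the eKO libraries (log2 fold change -1.10 ± 0.18 (SE), edgeR adjusted p = 0.00647), where it did not pass with the stricter marker gate (-0.93, edgeR adjusted p = 0.153). For *Btg2* both eKO libraries lay below both controls in 6 of 6 classes, and DESeq2 also called it lower in cvEC-like cells, CMs and mesenchyme-like cells (DESeq2 adjusted p = 0.0108, 0.00109 and 0.0369), where edgeR did not (edgeR adjusted p = 0.0635, 0.344 and 0.286). Summed over the 11 brakes, the level in mEndo-like cells was 6393 and 6630 in the control libraries and 7729 and 8892 in the eKO libraries, without overlap, and 7 of 11 were positive. Most of this sum was *Cdkn1c*, which encodes a CDK inhibitor, with 5570 and 6081 in the control libraries and 7349 and 8687 in the eKO libraries (log2 fold change 0.46 ± 0.18 (SE), edgeR adjusted p = 0.171, DESeq2 adjusted p = 0.0490). This CDK inhibitor rose in vEndo-like cells, with 453 and 744 in the control libraries and 1211 and 2267 in the eKO libraries (log2 fold change 1.54 ± 0.26 (SE), edgeR adjusted p = 0.00674), but was at 0.328 by DESeq2 (adjusted p) and at 0.61 on the log2 scale (edgeR adjusted p = 0.587) with the stricter marker gate. In CMs, 13 of 50 other replication genes and 3 of 21 G2 and mitosis genes were higher at an unadjusted p under 0.05 (5.05% of all genes), in mesenchyme-like cells 6 and 8 (4.51%), in epicardial-like cells 8 (of 36 tested) and 11 (3.05%), and in cvEC-like cells 3 (of 49 tested) and 0 (6.1%, near the share of the 49). In these 4 classes 0 genes of both lists were called by edgeR and 0 by DESeq2.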

How the data were processed

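Single cells of E14.5 ventricles were captured with 10x Genomics 3′ v3.1 chemistry, 2 control and 2 *Ets1* eKO libraries. The deposited matrices hold UMI counts per gene and barcode, which the authors made with Cell Ranger 7.1.0 on mm10 (Seurat 4.3.0 is also named in the submitters' processing notes). The study's methods name CellBender as its correction for free RNA, and whether the deposited counts come from before or after that step is not given in the sources used here. The total count per library was 76931208 to 124140739.

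Kept barcodes had 200 to 7000 genes, and mitochondrial, ribosomal and globin counts made up no more than 20%, 35% and 2%, and simulated-doublet neighbours were removed (11.1% of CMs and 0.789% to 3.64% of the other classes). Cells were gated by summed marker genes, with cuts set after the marker distributions were seen. Cells with fewer than 1000 UMIs were given no gate whatever their markers, 898 and 396 in the control and 788 and 747 in the eKO libraries. Of the kept cells, 3527 fell in no gate, these among them. In R 4.3.3, the quasi-likelihood test of edgeR 4.0.16 was applied to each class's sums of UMIs by library, after filterByExpr and TMM scaling, with Benjamini-Hochberg adjustment over all genes tested and a threshold of 0.05. DESeq2 1.42.0 was an alternative. CPM values of single genes were scaled by TMM factors, and those of summed levels by total UMIs of the class. The SE is the log2 fold change over the square root of F. Differences between class effects were tested as an interaction with the library as a block. The scripts were tested on simulated data. Cells are not replicates, and nothing states that libraries came from separate litters, so p-values measure the spread between these 4 libraries.

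The members and lists were chosen with earlier results of these data known. Named members were, in each class, those with the 2 largest and 2 smallest fold changes, others being added after their values were seen, and of the other lists up to 5 called genes per class. Promoters came from RefSeq (GRCm38.p6) and gene positions from GENCODE vM21.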

Additional observations from a re-analysis of the deposited data

How the results depend on the processing

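By edgeR no member was called in any of the 6 classes or in the 2 comparisons between classes. That count of 0 changed as follows, with the share of all genes called in the same fit in parentheses. In mEndo-like cells it was 2 with DESeq2 (3.23%), 1 with total count scaling (4.52%), 11 with no filter on low counts (6.18%) and 8 with the replicate block (5.82%), and leaving out 1 library gave 0 to 13 (1.57% to 8.08%). In vEndo-like cells it was 1 with no filter (1.49%), 1 with the replicate block (2.16%) and 0 to 2 with a library left out (0.993% to 3.13%). In CMs it was 2 with no filter (1.26%) and 0 to 14 with a library left out (0.116% to 14.4%), and in mesenchyme-like cells 0 to 2 (0.428% to 3.27%). In epicardial-like cells it was 1 with no filter (0.236%), 1 with the replicate block (0.289%), 1 with the stricter cell filter (0.12%) and 0 to 1 with a library left out (0.182% to 0.624%). For mEndo-like against cvEC-like cells it was 4 with no filter (1.86%), 10 with the replicate block (4.44%) and 0 to 9 with a library left out (1.06% to 2.38%), and against CMs 1 with the block (4.56%) and 0 to 12 (0.672% to 3.61%). The cause of these shifts was not tested.

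Replicate numbers did not pair the libraries: deviations of same-numbered libraries correlated at -0.101 to 0.0351 over the classes, so the block shares only a number. Crossed pairing in cvEC-like cells, added after seeing the data, called 0 members and 645 genes. A left-out library leaves 1 sample in its group, assumed to vary like the other group.

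Some fold changes changed sign. With a library left out, *Mcm2* in mEndo-like cells ran from -0.298 to 0.205, *Atad2* from -0.0945 to 0.358, *Cdca7* in vEndo-like cells from -0.0799 to 1.20, *Pola1* in CMs from -0.0121 to 0.0350, *Fen1* in mesenchyme-like cells from -0.310 to 0.145 and *Dtl* there from -0.0389 to 0.0590. *Pola1* was -0.107 with total scaling and -0.0249 with no doublets removed, and *Dtl* -0.0844 with total scaling and -0.00352 with no filter.

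In thinned cells the ratio of summed levels in vEndo-like cells turned from 1.13 to 0.988 at 1000 UMIs per cell, and in epicardial-like cells moved from 1.28 to 1.17. The ratio of member-rich shares moved in cvEC-like cells from 1.08 to 1.18 at 10 or more UMIs, and in epicardial-like cells from 1.79 to 1.23 at 4 or more. Other classes moved too. At 10 or more UMIs the vEndo-like shares were 11.4% and 8.16% in the control and 14.6% and 8.66% in the eKO libraries. The mEndo-like shares were 5.6% and 8.42% against 6.30% and 12.0%. In both classes the groups overlapped, as they did at 6 or more. The epicardial-like ratios of 2.71 at 1000 UMIs and 8.96 at 10 or more rest on 0 and 2 and on 1 and 0 control cells, against 7 and 5 and 8 and 8 eKO cells, too few to read as a move. Epicardial-like and vEndo-like cells, with 126 to 304 cells per library, had the largest errors.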

Other observations

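Cells outside the 6 classes also held the members. Immune-like cells, a lineage in which *Tie2*Cre is also active, had 2180 and 1713 CPM of the members in the control libraries and 1618 and 2098 in the eKO libraries, from 84 to 289 cells per library. Endothelial cells that no gate resolved, 104 to 278 per library, had 2247 and 3294 against 2940 and 2671. Smooth muscle and pericyte cells had 1959 and 1877 in the controls, from 50 and 204 cells, and 871 in eKO replicate 2 from 4 cells, and eKO replicate 1 had 0 cells in this gate. These groups were not tested.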
